A study of Gallus gallus with 4 samples.

Results

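The sites described here are the peaks of the transcription factor c-Myc, called against a nonspecific IgG control, in chicken myotubes. They were taken as every peak of the deposited myotube list, less those whose detailed annotation names a simple repeat, low-complexity sequence, rRNA, tRNA, snRNA or satellite. Of 1061 listed peaks 55 were left out in this way, and the 1006 kept peaks form the set, out of 20415 peaks listed for all cells of the study. The study mapped c-Myc targets in chicken skeletal muscle cells by chromatin immunoprecipitation followed by sequencing. Skeletal muscle of chicken embryos supplied primary cells, used at passage 1, which grew with 15% fetal bovine serum and formed myotubes after a switch to 2% horse serum. Culture included 2% penicillin and streptomycin. No gene was altered, and both groups used here share this origin and treatment. They differ in the antibody, which was against c-Myc (abcam ab56) in one group and a nonspecific IgG (bioss bs-0310P) in the other, with 1 library each. Peaks carry no expression values, so the label of the cells could not be checked against muscle markers.

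c-Myc is a basic helix-loop-helix leucine zipper protein that pairs with MAX and binds DNA at E-box sequences, mostly in active promoters. Its textbook targets serve ribosome production, RNA processing, mitochondria, nucleotide synthesis and the cell cycle, and it is known for opposing muscle differentiation. Myotubes are the multinucleated, postmitotic cells formed when myoblasts fuse, in which c-Myc is usually low.

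The c-Myc library held 8651343 tags and the IgG library 19281498, so the control was 2.23-fold deeper. Tags are counted reads, in steps of 0.5, and values below are unscaled tags over a peak of 154 bp unless they are said to be scaled. The kept peaks held 9 to 38 c-Myc tags with a median of 11.5, and 0 to 20 IgG tags with a median of 3. Spread evenly over the sequence that the deposited peaks span, the libraries would give 1.33 c-Myc and 2.97 IgG tags in such a window, so the median peak had the IgG level of an average window. Single peaks were measured coarsely, since counting error alone puts 11.5 tags between 5.84 and 20.3 in a 95% Poisson interval. All intervals cover counting error only, and with 1 library per antibody no difference has a replicate check or a test. For tags in steps of 0.5 the exact formulas give approximate intervals. They also take no account of the selection of peaks by the caller.

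Scaled to library depth, with IgG counted as 3 tags where it was lower, 993 of the 1006 kept peaks (98.7%) had a c-Myc over IgG ratio of at least 4, and 542 had a ratio of at least 8. The authors' caller selected peaks on this contrast, so these counts describe the list. Together the kept peaks accounted for 0.140% of the c-Myc library and 0.0151% of the IgG library. IgG tags were 0 at 95 peaks (9.44%). High c-Myc counts were rare among the kept peaks, with 47 peaks at 15 tags or more and 5 at 20 or more. The rule itself took out many tall peaks. Of the 55 peaks left out, 37 had 15 c-Myc tags or more and 30 had 20 or more, with a highest of 186. Ranks by height below are therefore ranks among the kept peaks. In the plot of c-Myc against IgG tags most peaks form a narrow band of c-Myc values up to about 7.5 IgG tags, and the few peaks with 9 or more IgG tags run from 12 to 38 c-Myc tags.

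**Figure D1:**
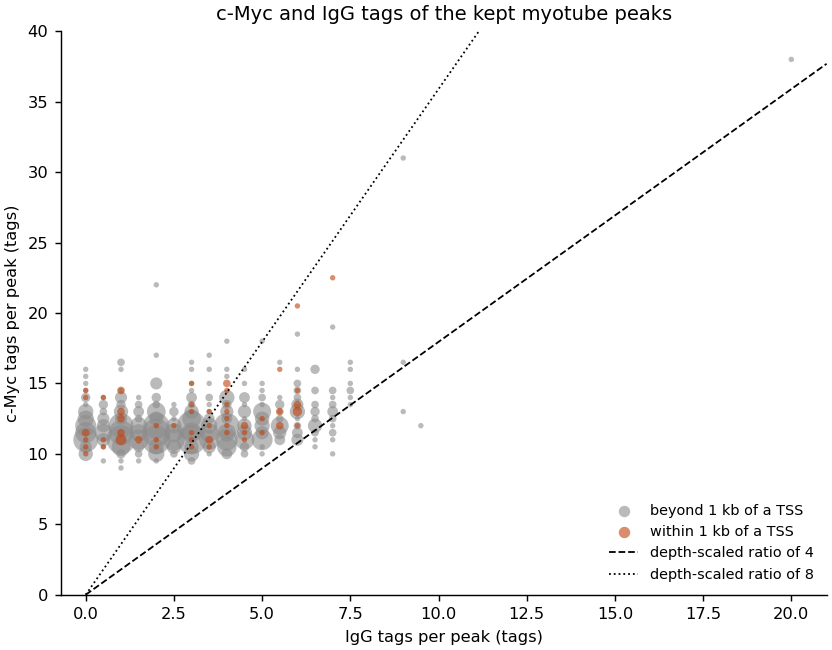
Each bubble is a combination of IgG tags (x axis, tags per peak) and c-Myc tags (y axis, tags per peak) among the 1006 kept peaks, with an area in proportion to the number of peaks; colour marks peaks within 1 kb of a transcription start site. Most peaks lie between 10 and 15 c-Myc tags, and nearly all lie above the dashed line of a depth-scaled ratio of 4.

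Most kept peaks lay away from annotated genes. The authors' annotation placed 768 (76.3%, exact 95% interval 73.6 to 78.9) in intergenic sequence and 122 (12.1%, 10.2 to 14.3) in introns, of which 34 were in a first intron. Its promoter class, which here runs from 1994 bp upstream to 1959 bp downstream of a transcription start site (TSS), held 99 peaks (9.84%, 8.07 to 11.9). Exons, untranslated regions and transcript ends held 17 peaks in all. The median distance to the nearest TSS was 43.2 kb and the largest was 2239 kb. These shares and distances depend on which genes the annotation holds, and its completeness was not tested.

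Within 1 kb of a TSS there were 67 peaks (6.66%, 5.20 to 8.38), which named 66 genes, 7.86% of the 840 genes named by the kept peaks. They gathered just upstream of the start. The 500 bp upstream of the TSS held 35 peaks, against 12 in the next 500 bp upstream and 10 in each of the first and second 500 bp downstream. Upstream positions made up 47 of these 67 peaks (70.1%, 57.7 to 80.7), 92 of the 146 peaks within 5 kb (63.0%) and 226 of the 464 peaks beyond 50 kb (48.7%).

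**Figure D2:**
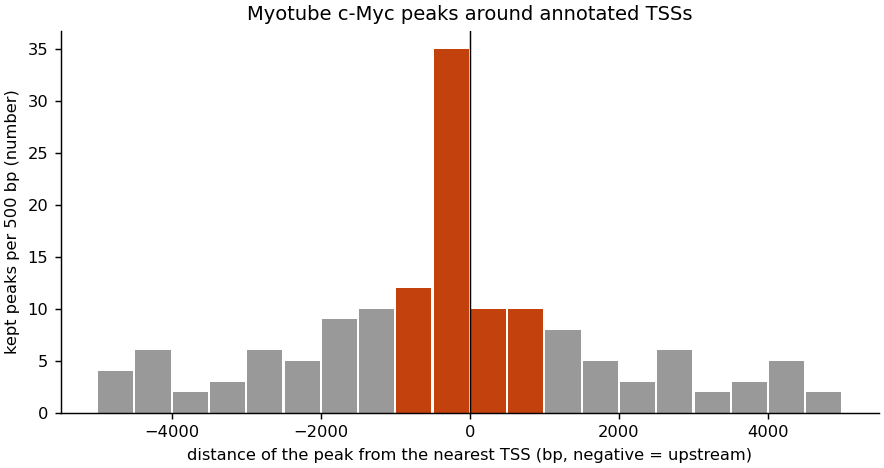
Kept peaks per 500 bp (y axis, number) by distance of the peak from the nearest annotated TSS (x axis, bp, negative upstream), with bins within 1 kb in colour. The tallest bin, with 35 peaks, is the one directly upstream of the TSS, and no other bin holds more than 12.

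The promoter peaks were about as tall as the others. They held 10 to 22.5 c-Myc tags with a median of 12 and 0 to 7 IgG tags with a median of 3, against medians of 11.5 and 3 over the 939 peaks farther out. No kept peak had a caller score below 11, so lower-scoring peaks are absent from both sets by selection. All 67 had a ratio of at least 4, where 98.7% of all kept peaks did, and 33 had a ratio of at least 8. After their values had been seen, 64 of the 66 genes were sorted by role, and the plot of promoter peaks shows their 65 peaks.

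**Figure D3:**
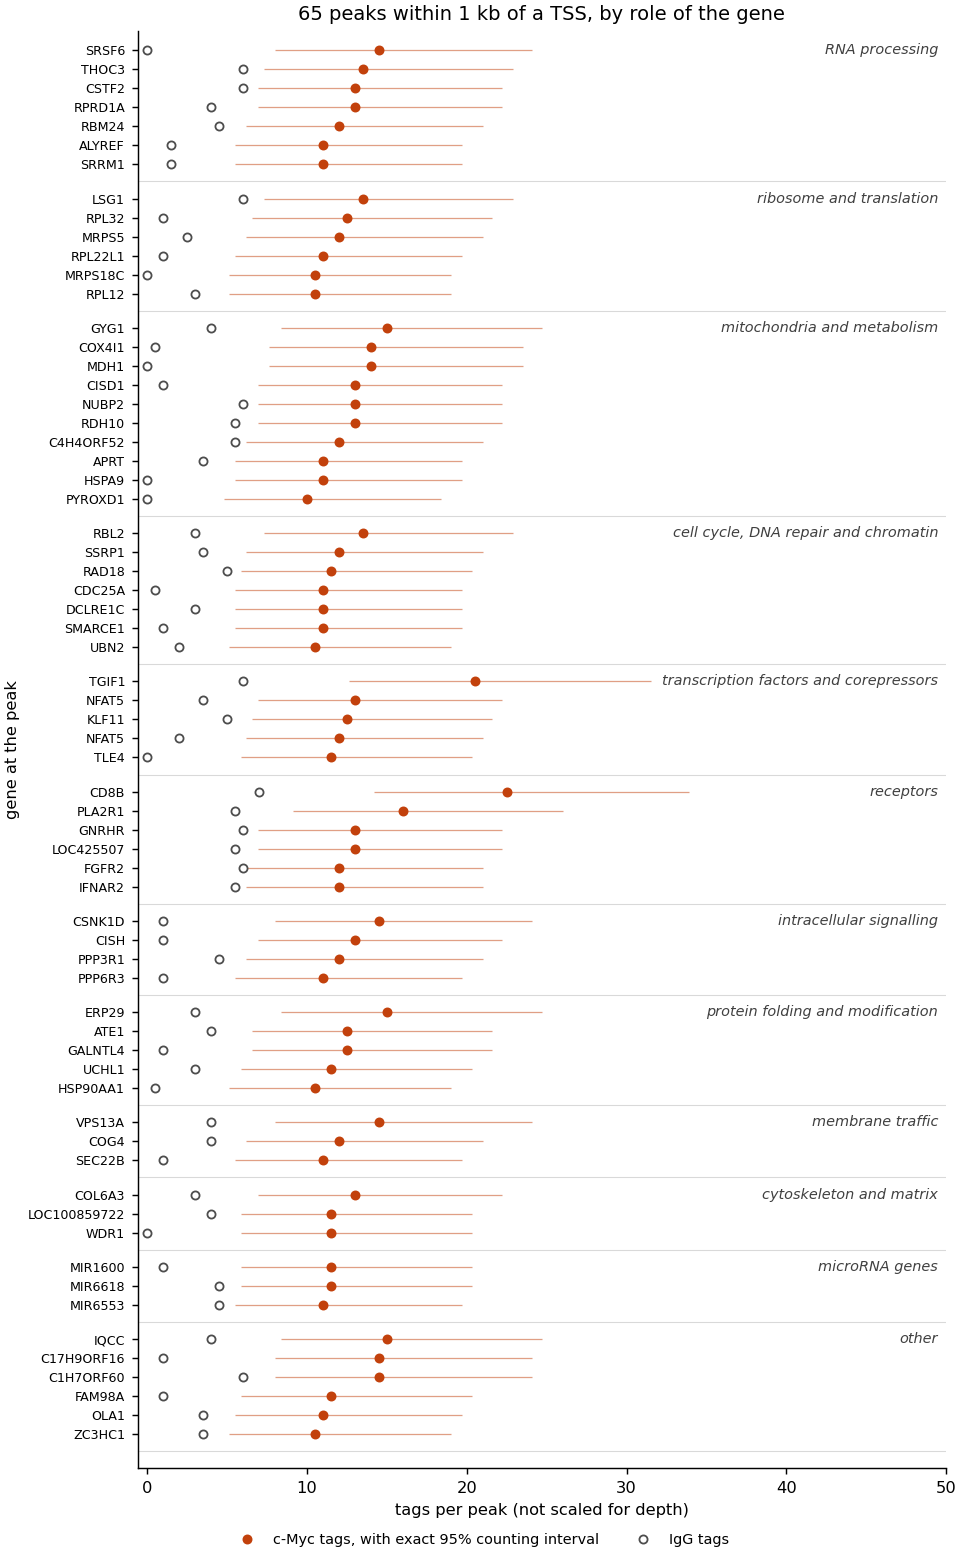
c-Myc tags (filled points, with exact 95% counting intervals) and IgG tags (open points) of 65 of the 67 peaks within 1 kb of a TSS; the x axis is tags per peak, not scaled for depth, and genes on the y axis are grouped by role. c-Myc points run from 10 to 22.5 and IgG points from 0 to 7, and all 6 receptor genes have 5.5 or more IgG tags.

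RNA processing was represented by 7 promoter genes, 6 of them with the peak upstream of the TSS, beside 47 of all 67 promoter peaks (70.1%). SRSF6 encodes a serine and arginine rich splicing factor, and its promoter had 14.5 c-Myc tags and 0 IgG tags, a ratio of at least 10.8 with IgG at 3 tags and an exact lower limit of 7.69. In build galGal4 it is found on chromosome 20 between 94163 and 94317, 235 bp upstream of the TSS. SRRM1, a coactivator of splicing, had 11 c-Myc and 1.5 IgG tags, and ALYREF, an adaptor of mRNA export, had the same values. THOC3, a subunit of the THO export complex, had 13.5 and 6. CSTF2, which binds pre-mRNA for cleavage before polyadenylation, had 13 and 6. RPRD1A, which binds the tail of RNA polymerase II, had 13 and 4, and RBM24, an RNA-binding protein known from splicing in muscle, had 12 and 4.5. SRSF6 had both the most c-Myc and the fewest IgG tags of these genes.

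Ribosomes and translation had 6 promoter genes, and 5 of these peaks held 3 IgG tags or fewer, as did 34 of the 67 promoter peaks (50.7%) and 614 of all kept peaks (61.0%). Among proteins of the large cytosolic subunit, RPL32 had 12.5 c-Myc and 1 IgG tags and RPL12 had 10.5 and 3. RPL22L1, a paralog of the large subunit protein RPL22, had 11 and 1. LSG1, a GTPase of large subunit maturation, had the most c-Myc tags of the 6 with 13.5, and also the most IgG tags with 6. MRPS5 and MRPS18C belong to the small subunit of the mitochondrial ribosome. MRPS5 had 12 c-Myc and 2.5 IgG tags. MRPS18C had 10.5 and 0, with its peak 2 bp upstream of the TSS.

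Mitochondria and metabolism, broad roles joined here, formed the most numerous group with 10 of the 64 sorted genes. The share of such genes among all named genes was not counted, so this rank describes the sorting only. MDH1, the cytosolic malate dehydrogenase, had 14 c-Myc and 0 IgG tags, a ratio of at least 10.4 with IgG at 3 tags and an exact lower limit of 7.39. COX4I1, a subunit of cytochrome c oxidase, had 14 and 0.5, on chromosome 11 from 17081574 to 17081728 and 25 bp upstream of its TSS. These peaks and that of HSPA9, the mitochondrial chaperone mortalin, with 11 and 0, stood over almost no IgG. CISD1, an iron-sulfur protein of the outer mitochondrial membrane, had 13 and 1, with its peak 22 bp upstream of the TSS. PYROXD1, an oxidoreductase whose human gene is known from a myopathy, had 10 and 0. NUBP2, a factor of iron-sulfur cluster assembly, had 13 and 6. C4H4ORF52, named SMIM20 in the newer RefSeq table and known from cytochrome c oxidase assembly, had 12 and 5.5.

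Of the other genes in this group, GYG1, the glycogenin that primes glycogen synthesis, had 15 c-Myc and 4 IgG tags, a ratio of 8.36 (2.66 to 34.6). APRT, which salvages adenine, had 11 and 3.5, and RDH10, a retinol dehydrogenase, had 13 and 5.5. IgG tags thus ran from 0 to 6 within the group while c-Myc tags ran from 10 to 15.

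All 7 peaks at genes of the cell cycle, DNA repair and chromatin lay upstream of the TSS, and none reached 5.5 IgG tags. Over all 67 promoter peaks, 47 (70.1%) lay upstream and 14 (20.9%) had 5.5 or more IgG tags. RBL2, the retinoblastoma family protein p130 known from quiescent cells, had 13.5 c-Myc and 3 IgG tags, with an interval of 2.78 to 54.6 for the ratio. CDC25A, the phosphatase that activates cyclin-dependent kinases and a textbook c-Myc target, had 11 and 0.5. The RBL2 peak was the taller, though the counting intervals of both overlap. SSRP1, which belongs to the histone chaperone FACT, had 12 and 3.5, SMARCE1, a subunit of SWI/SNF remodellers, had 11 and 1, and UBN2, of the HIRA histone chaperone, had 10.5 and 2. RAD18, a ubiquitin ligase of postreplication repair, had 11.5 and 5. DCLRE1C, the nuclease Artemis of end joining, had 11 and 3.

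Transcription regulators gave 4 genes and 5 peaks. TGIF1, a homeodomain corepressor of TGF-beta signalling, had the second tallest promoter peak, with 20.5 c-Myc and 6 IgG tags and a ratio of 7.61 (2.96 to 23.1). It lay on chromosome 2 from 100487693 to 100487847, 186 bp upstream of the TSS. NFAT5, the factor of the response to osmotic stress, was the single gene with more than 1 promoter peak. Its peaks lay 762 and 355 bp upstream, with 13 c-Myc and 3.5 IgG tags at the first and 12 and 2 at the second. KLF11, a zinc finger factor, had 12.5 and 5, and TLE4, a Groucho corepressor, had 11.5 and 0.

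The 6 peaks sorted to receptor genes had 5.5 to 7 IgG tags. Of the 67 promoter peaks 14 (20.9%) had 5.5 or more, and of the 1006 kept peaks 128 (12.7%). The cut-off of 5.5 is the lowest value of this group, which was formed after the values were seen. The contrast is therefore a description only. The tallest promoter peak of the list belonged to CD8B, a chain of the T cell coreceptor CD8, with 22.5 c-Myc and 7 IgG tags and a ratio of 7.16 (2.97 to 19.8). It lay on chromosome 4 from 85446959 to 85447113, 821 bp upstream of the TSS, and the newer RefSeq table gives the gene the symbol CD8BP. Some deposited names map by gene ID to the symbol of a paralog in that table, so the identity of such family members is uncertain. PLA2R1, a phospholipase A2 receptor, had 16 and 5.5, GNRHR, a receptor of gonadotropin-releasing hormone that the newer table lists as LOC427517, had 13 and 6, and LOC425507, named CMKLR1 in the newer table, had 13 and 5.5. FGFR2, a fibroblast growth factor receptor, had 12 and 6, and IFNAR2, a chain of the type I interferon receptor, had 12 and 5.5. Several of these genes are known from immune or endocrine cells, and whether they are transcribed in these myotubes was not measured.

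Intracellular signalling gave 4 genes with lower control values of 1 to 4.5 tags. CSNK1D, the kinase CK1 delta, which acts in the circadian clock, had 14.5 c-Myc tags over 1 IgG tag and a ratio of 32.3 (4.95 to 1363), an interval that shows how little 1 tag constrains. CISH, a SOCS family inhibitor of cytokine signalling, had 13 and 1, and PPP6R3, a regulatory subunit of protein phosphatase 6, had 11 and 1. PPP3R1, the regulatory subunit of calcineurin, a phosphatase known from calcium signalling in muscle, had 12 and 4.5.

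Among genes of protein folding and modification, ERP29, a chaperone of the endoplasmic reticulum, had 15 c-Myc and 3 IgG tags and HSP90AA1, an HSP90 chaperone, had 10.5 and 0.5. UCHL1, a deubiquitinase, had 11.5 and 3, ATE1, an arginyltransferase, had 12.5 and 4, and GALNTL4, a glycosyltransferase, had 12.5 and 1. This was the one group with most peaks downstream of the TSS, at 4 of 5, where 47 of all 67 promoter peaks (70.1%) lay upstream. Membrane traffic held VPS13A, a lipid transfer protein, at 14.5 and 4, COG4 of the Golgi at 12 and 4, and SEC22B, a SNARE, at 11 and 1.

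Of the cytoskeleton and matrix, WDR1, a cofactor of actin disassembly, had 11.5 c-Myc and 0 IgG tags. COL6A3, a chain of collagen VI, which surrounds muscle fibres, had 13 and 3. LOC100859722, a keratin-like gene, had 11.5 and 4. No peak within 1 kb fell at a sarcomere gene. Of all 7184 genes with a curated transcript in the newer RefSeq table, only 66 (0.919%) had such a peak. The absence among 38 curated genes of the sarcomere list is thus near the share of all genes. The remaining sorted genes comprise the microRNA genes MIR1600, MIR6618 and MIR6553, with 11 to 11.5 c-Myc tags over 1 to 4.5 IgG tags, and 6 genes of other roles, with 10.5 to 15 over 1 to 6. Of these 6, IQCC had the most c-Myc tags at 15 over 4 IgG tags, and C17H9ORF16 had 14.5 over 1.

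Gene lists chosen with earlier results of these data known were then counted. Of 29 lists, 16 had a member with a peak within 1 kb, and 25 different genes carried these peaks out of 160 list genes named by any kept peak. Ribosomal proteins, splicing and RNA processing, respiratory chain and mitochondria, and lymphoid and immune genes had 3 promoter genes each. These were out of 11, 8, 8 and 11 members named by a peak. In the list of respiratory chain and mitochondria they were COX4I1, HSPA9 and MDH1, though MDH1 is the cytosolic enzyme. The cell cycle list and the list of proteasome, ubiquitin and chaperone genes had 2 each, and 10 further lists had 1. Beside these, 66 of all 840 named genes (7.86%) had a peak within 1 kb. The median distance of the closest peak ran from 1.76 kb for the 8 named splicing and RNA processing genes and 4.43 kb for the 6 of the cell cycle to 194 kb for ribosome biogenesis and translation factors, against 36.3 kb over all named genes. Ribosomal proteins (11 named genes, 10.3 kb) and textbook MYC targets (4 named genes, 11.6 kb) also lay below that value. So did lists of other functions. Examples are extracellular matrix and fibroblast (7 named genes, 8.18 kb), lymphoid and immune (11 named genes, 12.8 kb) and Wnt and Notch signalling (5 named genes, 20.1 kb). A short median thus does not set textbook c-Myc functions apart. The 194 kb rests on 2 named genes. Other lists of textbook c-Myc functions lay above 36.3 kb. The values were 39.5 kb for DNA replication and repair, 43.8 kb for respiratory chain and mitochondria and 59.7 kb for nucleotide and polyamine synthesis. Each median rests on few genes, and 16 of the 29 lie above the value of all named genes.

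**Figure D4:**
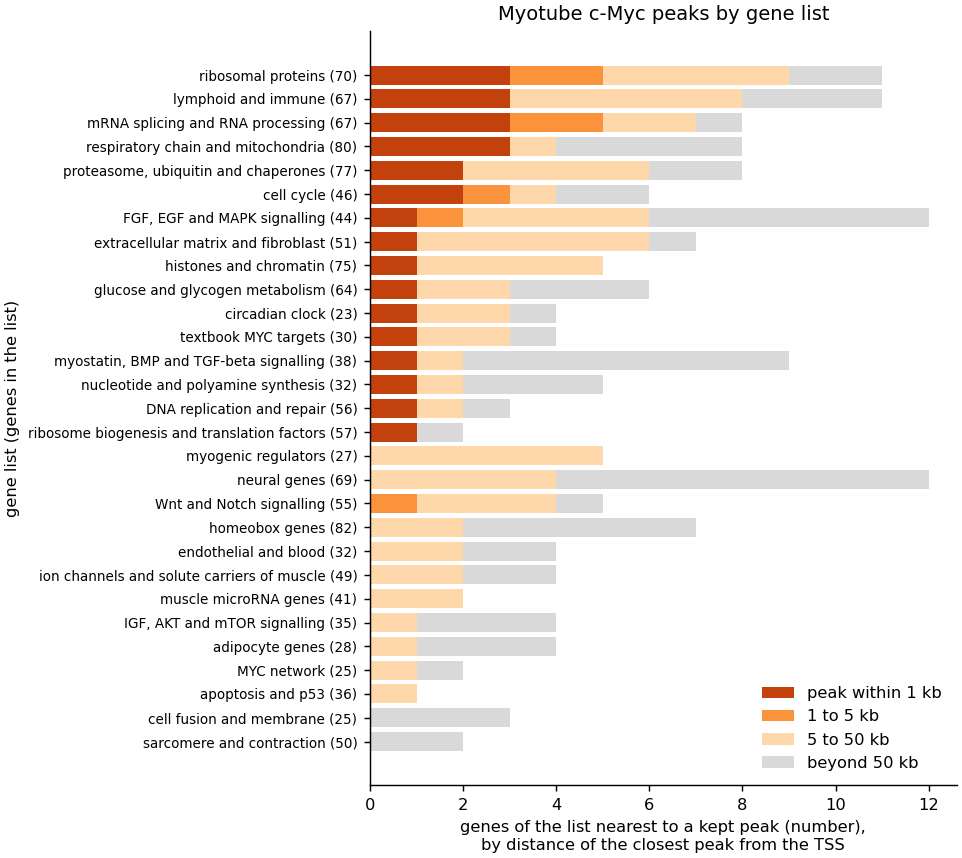
Number of genes of each list that are nearest to a kept peak (x axis), split by distance of the closest peak from the TSS; the y axis names the list with the number of genes in it. The lists of ribosomal proteins, splicing, respiratory chain and mitochondria, and immune genes lead with 3 genes within 1 kb, and 13 lists have none.

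Among genes of RNA processing beyond 1 kb, U2AF1, the small subunit of the splicing factor U2AF, had 10 c-Myc and 3 IgG tags at 1280 bp downstream. SRSF2, another serine and arginine rich factor, had 11 and 1 at 2248 bp upstream. E2F1, a transcription factor of S phase entry, had 11.5 and 2.5 in its 3' untranslated region, 2567 bp from the TSS. CDKN1A, the inhibitor p21, which c-Myc is known to repress, had 14 and 3.5 at 6.30 kb.

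Of 15 genes of the MYC network with a curated transcript in the newer RefSeq table, 2 were nearest to a kept peak, where 833 of all 7184 such genes (11.6%) were. Neither had a peak within 5 kb, where 143 of all 840 named genes had one. USP28, a deubiquitinase known to stabilise c-Myc, had 11 c-Myc and 4 IgG tags at 33.2 kb upstream. MYC was the nearest gene to 3 peaks of 10.5 to 12 c-Myc tags, the closest of them 260 kb away.

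Of 23 myogenic regulators with a curated transcript, 5 were nearest to a peak, again beside the 11.6% of all such genes. None had a peak within 1 kb, which is near the 0.919% of all such genes that had one. All 5 had their closest peak between 8.55 and 44.6 kb, where 497 of all 840 named genes (59.2%) had a peak within 50 kb. TCF3, the E protein partner of myogenic factors, had 11.5 c-Myc and 5.5 IgG tags in an intron at 8.55 kb, and TWIST2, an inhibitor of such factors, had 11 and 3 at 10.2 kb upstream. MEF2A, a factor of muscle gene transcription, had 12.5 and 4 at 30.3 kb. EYA2, a coactivator of homeodomain factors in muscle precursors, had 11 and 3 at 33.1 kb as the closest of its 3 peaks. PAX7, a marker of satellite cells, had 12 and 1 in an intron at 44.6 kb. Of 38 curated genes in the list of sarcomere and contraction, 2 were named. They were CASQ2, the calcium buffer of the sarcoplasmic reticulum, at 98.6 kb and ACTA1, skeletal actin, at 118 kb. A gene without a listed peak may still be bound below the caller's threshold, and a distal peak may serve a gene other than the nearest.

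The list of FGF, EGF and MAPK signalling had 12 named genes. Of these, 6 had a peak within 50 kb, a share of 50% beside the 59.2% of all named genes. Next to FGFR2, MAP2K1, the kinase MEK1, had 3 peaks within 14.2 kb downstream of its TSS. They held 11 c-Myc and 4 IgG tags at 1.63 kb, 16.5 and 3 at 7.41 kb and 13 and 6.5 at 14.2 kb, the farther pair in the first intron. FGF9, a growth factor, had 12 and 3 at 10.2 kb upstream. FGF16, which is not counted in this list, had 14.5 and 7 at 1165 bp upstream. In the matrix list, 6 of the 7 named genes had a peak within 50 kb, beside the same 59.2%. COL5A1, a chain of collagen V, had 10.5 and 4 at 6.86 kb, and COL6A2, the chain that joins COL6A3 in collagen VI, had 13 and 3 at 7.57 kb.

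Of the 5 kept peaks with 20 or more c-Myc tags, 2 are the promoter peaks of TGIF1 and CD8B described above and the other 3 lay farther out. The highest, with 38 c-Myc tags, also had the most IgG tags, 20, and a ratio of 4.23 (2.40 to 7.68); the annotation places it in an intron of the microRNA transcript MIR3524B on chromosome 1 from 117865219 to 117865373. The next, with 31 c-Myc and 9 IgG tags, lay in a CpG island 16.2 kb from CHST6, a sulfotransferase gene, on chromosome 11. After CD8B, a peak with 22 c-Myc and 2 IgG tags lay 15973 bp from CCDC101, named SGF29 in the newer table and a subunit of the SAGA complex, on chromosome 8 from 28744997 to 28745151. Its ratio of 24.5 (6.03 to 215) stood over a low control, whereas the first peak had the highest control of the kept peaks. The CCDC101 peak is also the last deposited peak on chromosome 8. The CHST6 peak ends at 19379827, close to the last deposited peak end of chromosome 11 at 19379883. Whether these positions affect the tags was not tested. The others of the tallest 10 beyond 1 kb held 16.5 to 19 c-Myc tags, and 6 peaks with 1 to 9 IgG tags tie at 16.5 for the last place. They include 18 and 4 tags at 1310 bp upstream of C6H10ORF46, inside the authors' promoter class, named CACUL1 in the newer table, a cullin-associated factor of cell cycle entry. They also include 17 and 2 tags at 36.8 kb from PSMC6, an ATPase of the proteasome.

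Kept peaks were denser on small chromosomes. Microchromosomes (11 to 28) held 292 of the 1006 peaks (exact interval of the share 26.2% to 31.9%), or 1.71 per Mb (1.52 to 1.91). The macrochromosomes 1 to 5 held 510 peaks, or 0.844 per Mb (0.772 to 0.921), and chromosomes 6 to 10 held 1.29 per Mb (1.11 to 1.49). The Z chromosome had 19 peaks, 0.233 per Mb (0.140 to 0.363). Lengths were taken up to the last deposited peak on each chromosome. Chicken microchromosomes are known to be rich in genes, and the median distance to the nearest TSS was 24.4 kb there against 57.8 kb on the macrochromosomes. The share of peaks within 1 kb of a TSS was 8.56% (5.62 to 12.4) on microchromosomes and 5.69% (3.84 to 8.06) on macrochromosomes, with overlapping intervals. The part of gene density, mappability and copy number in these densities was not tested.

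**Figure D5:**
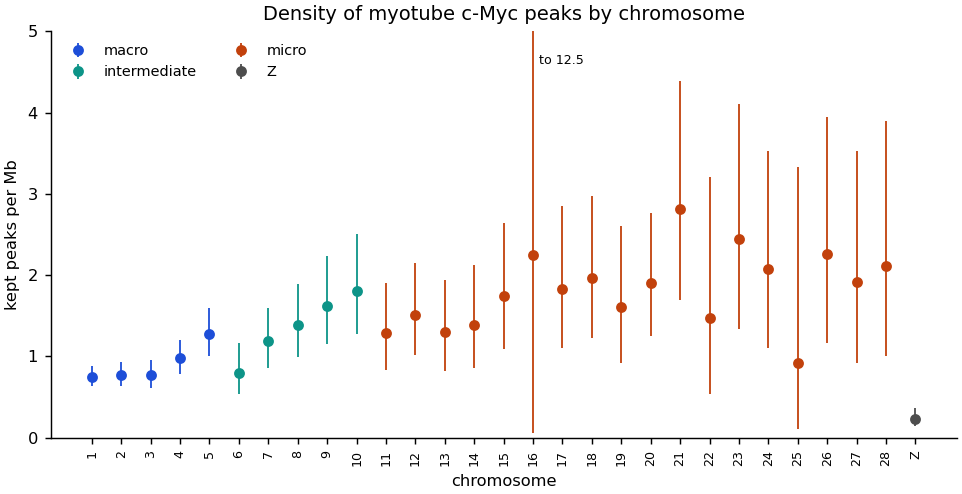
Kept peaks per Mb (y axis) on each chromosome (x axis), with exact 95% Poisson intervals, coloured by size class. Chromosome 1 lies at 0.748 and chromosome 21 is highest at 2.81, while Z is lowest at 0.233; the interval of chromosome 16, which holds 1 peak, runs beyond the axis to 12.5.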

How the data were processed

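Per the submitters' processing notes, CASAVA 1.8.2, Trimmomatic 0.30, FastQC 0.10.1, Bowtie2 2.1.0 and HOMER 4.6 were used, on build galGal4. Neither their order nor their options are given there. The authors called peaks from 1 c-Myc against 1 IgG library and annotated each with its nearest gene and TSS. The deposited signal columns give unscaled tags per peak. The peak score, as deposited, equals the caller's tags per 10M within 0.0486. The caller's tags differed from the unscaled tags by more than 1 at some peaks, so the unscaled tags were used. The deposited fold over IgG, a ratio, is at least 4 at each kept peak, and the highest deposited p-value against IgG is 5.50e-05; the folds serve only as an alternative. Another 4 columns of per-sample tags, those of the other cell state, were not used; only its peak ends entered, for chromosome lengths.

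Ratios are c-Myc over IgG tags, each divided by its library total, with IgG under 3 tags set to 3 in counts and written "at least" for a gene at 0. Otherwise the ratio carries an exact binomial interval given the sum of both counts. Shares have exact (Clopper-Pearson) and densities exact Poisson 95% intervals. Python 3.11.15, numpy 2.4.6, pandas 2.3.3, scipy 1.17.1 and matplotlib 3.10.9 were used. The counting was tested on simulated data. Of 841 gene IDs named, 833 (99.0%) match the RefSeq table of GRCg7b, used for names only. List members were matched by deposited or current symbol and counted once per gene ID.

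The sites and lists were chosen with earlier results of these data known. Any gene with a peak within 1 kb could be named. Beyond that the rule took the 10 peaks with most c-Myc tags, the 5 genes nearest to most peaks, the 3 closest members of each list within 50 kb, and the members of the MYC network and myogenic lists. U2AF1, SRSF2, ACTA1, CASQ2, FGF16 and the genes of the other observations outside this rule were chosen after their values were seen. The results were recomputed with other TSS windows, repeat filters, peak sets, IgG floors and scalings. Promoter sequence was not used here, and 2 genes with a promoter peak are not reported here by name.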

Additional observations from a re-analysis of the deposited data

How the results depend on the processing

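Of 64 recomputed values, 54 stayed within the counting interval of the reported share or density, or within 1.5 times the reported count. Some of the 54 could not move. Leaving out unplaced sequence removed no peak, and an IgG floor of 1 tag could not change the count of ratios of at least 4. Both repeat settings left the 67 peaks within 1 kb, their 66 genes and the 99 peaks of the promoter class unchanged. None of these peaks carries a repeat label, so only the totals beside them moved. The 54 also include the microchromosome share, the densities and the intergenic and intron shares under every alternative run. The share of peaks near a TSS was 4.47% within 500 bp and 14.5% within 5 kb, against 6.66% within 1 kb. The number of genes was 143 within 5 kb, 39 among the upper 50% of peaks by c-Myc tags and 32 among peaks with a ratio of at least 8, against 66; fewer peaks enter both of the latter by construction. The 5' untranslated region held 1 peak, and the upper 50% held 0. Without scaling for depth, and with IgG under 3 tags still set to 3, 267 peaks had a ratio of at least 4, against 993 with scaling. The IgG library was 2.23-fold deeper. Under that floor a peak of the median 11.5 c-Myc tags could not reach 4 unscaled, however low its IgG. By the caller's own fold, an alternative added after seeing the data, 595 reached 8, beside 542 by the depth-scaled ratio. It is not among the 54 because it was set against the 993 at a ratio of 4, an unlike threshold. List genes numbered 93 within 50 kb and 160 at any distance, against 25 within 1 kb. Leaving out unplaced sequence changed nothing, as no kept peak lies there. The E-box alternatives were not run. No paired analysis was possible because each antibody has 1 library. Single peaks rest on few tags: most hold 11 to 12.5 c-Myc tags, and none was seen in a second library. No kept peak had a caller score below 11, so the low end of this range reflects the selection of peaks.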

Other observations

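Several genes were nearest to more than 1 kept peak, which promoter counts do not show. Of the 840 named genes, 706 had 1 peak, 107 had 2, 23 had 3, 3 had 4 and 1 had 5. The 5 peaks belonged to ST8SIA2, a sialyltransferase that adds polysialic acid to the cell adhesion molecule NCAM and is known from developing muscle and brain. They held 10 to 15 c-Myc tags and lay 42.2 to 546 kb from its TSS. COL5A1 had 4 peaks of 10.5 to 12.5 tags within 101 kb. MSN, which encodes the membrane and actin linker moesin, had 4 of 12 to 15 tags within 99.8 kb. Some MSN peaks lay near the start of chromosome 4, 1 of them from 26328 to 26482, and whether this affects their tags was not tested. The name PTPRJ also stood at 4 peaks, on 2 chromosomes, so it does not mark 1 locus. Pairs of peaks within 1 kb of each other were found at NFAT5, at CCDC101, at MBP, the myelin basic protein gene, and at CHAF1A, a subunit of the chromatin assembly factor CAF-1. The CHAF1A pair lay 693 bp apart with 12 c-Myc and 4 IgG tags at one peak and 15 and 7.5 at the other.

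Introns held sites at further muscle-related genes. TEAD1, a transcription factor that binds MCAT elements of muscle genes, had 13 c-Myc and 0 IgG tags in its first intron, 19.1 kb from the TSS. ANKRD1, the cardiac ankyrin repeat protein known from stretched muscle, had 12 and 1 at 3.47 kb upstream of its annotated TSS, in an intron of another transcript. IGF2BP1, an mRNA-binding protein known to stabilise MYC mRNA, had intron peaks of 13 and 4.5 tags at 2.38 kb and of 12 and 0 at 4.48 kb. The detailed annotation names a CpG island at 61 kept peaks (6.06%), of which 59 are intergenic and 2 intronic, with medians of 12 c-Myc and 4 IgG tags. Transposable elements held 35 (3.48%), of which 28 were CR1 elements, the main family of chicken LINEs, with medians of 11.5 and 3. Both labels stood only at intergenic and intron peaks, away from the other annotated classes. These shares therefore do not show how many promoter peaks lie in CpG islands or elements. A microRNA gene was the nearest gene of 100 kept peaks (9.94%), which named 82 such genes. The share of microRNA genes in the whole annotation was not counted, so this number describes the list only. Among them MIRLET7A-2, of the let-7 family that is known to target MYC mRNA, had 13 c-Myc and 2.5 IgG tags at 21.3 kb.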
